A study of Mus musculus with 9 samples.

Results

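The matrix metalloproteinases (MMPs), the ADAM and ADAMTS proteases, the tissue inhibitors of metalloproteinases (TIMPs) and the plasminogen activators with their receptor were followed in MyC-CaP cells treated with asporin (ASPN). Members were taken by gene name: every numbered Mmp, Adam and Adamts gene, Timp1 to Timp4, Plau, Plat and Plaur. This rule found 52 of the 15384 protein-coding genes in the count table. MyC-CaP is a mouse prostate cancer line derived from a tumor of a MYC transgenic mouse, and ASPN is a secreted proteoglycan of stromal fibroblasts. Cells were plated in triplicate, starved of serum and calcium, and collected either at time 0 or after 12 or 24 hours with recombinant mouse ASPN at 100 ng/mL, which gave 3 RNA-Seq libraries per time. In the sample labels, the libraries of time 0 also carry ASPN as their treatment, and they were used here as the cells before any hours with ASPN. No library of cells kept for 12 or 24 hours in buffer alone was analysed here, so the treatment and the hours in culture cannot be told apart in any comparison.

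Counts per library totaled 41881191 to 52993821, and 3 counts, taken as the floor of detection, corresponded to 0.0566 to 0.0716 CPM, which are counts scaled to a common library total. CPM values below are scaled with TMM factors over the 9 libraries, and those factors ranged from 0.898 to 0.911 for 24 hours and from 1.04 to 1.07 for the earlier libraries. The label calls the cells epithelial-like: Krt19 averaged 89.2 ± 13.4 CPM and Hoxb13 71.8 ± 3.45 CPM (SD, n = 3) at time 0 and Krt8 was present, whereas Epcam, Cdh1 and Cldn7 did not exceed 3 counts in any time 0 library. The 8 epithelial markers in the table summed to 176 to 211 CPM at time 0, 196 to 205 CPM at 12 hours and 261 to 298 CPM at 24 hours. At 24 hours Krt19 was called higher (0.64 on the log2 scale, SE 0.0835, adjusted p = 1.3e-05), and Krt8 (0.585), Hoxb13 (0.43), Cldn4 (0.20) and Krt18 (0.81, on 8 to 22 counts per library at 0 and 24 hours) were not called. Of other cell types, the 5 fibroblast markers in the table summed to 12.9 to 14.1 CPM at time 0 and 9.12 to 10.3 CPM at 24 hours, nearly all from Pdgfra (log2 fold change -0.51 at 24 hours, not called). Dcn, with 7 to 11 counts at time 0 and 9 to 29 at 24 hours, was the 1 fibroblast marker called at 24 hours (1.20, SE 0.494, adjusted p = 0.044). It had enough counts to be tested there only with its 24 hour libraries, where it was high, and was not tested at 12 hours against time 0. Fap did not exceed 2 counts in any library. The 5 macrophage and leukocyte markers in the table summed to 9.05 to 9.32 CPM at time 0, 18.2 to 22.2 CPM at 12 hours and 17.6 to 23.9 CPM at 24 hours. Nearly all came from Cd14, which was called higher at 12 and at 24 hours, and Csf1r, Lyz2 and Itgam did not exceed 4 counts. Endothelial markers summed to at most 0.183 CPM. The part of these shifts in the results below was not tested.

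MMPs are zinc enzymes that cut collagens and other matrix proteins, and most are made as inactive precursors that other proteases, plasmin among them, can activate. ADAMs are membrane-anchored relatives that shed surface proteins, ADAMTS enzymes are secreted and include those that cut aggrecan and versican, and TIMPs bind and block the active sites of many of these proteases. Plasminogen is converted to plasmin by urokinase (Plau), which acts on its cell surface receptor (Plaur), or by tissue plasminogen activator (Plat). In prostate cancer, both systems are known from studies of invasion and bone metastasis.

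**Figure D1:**
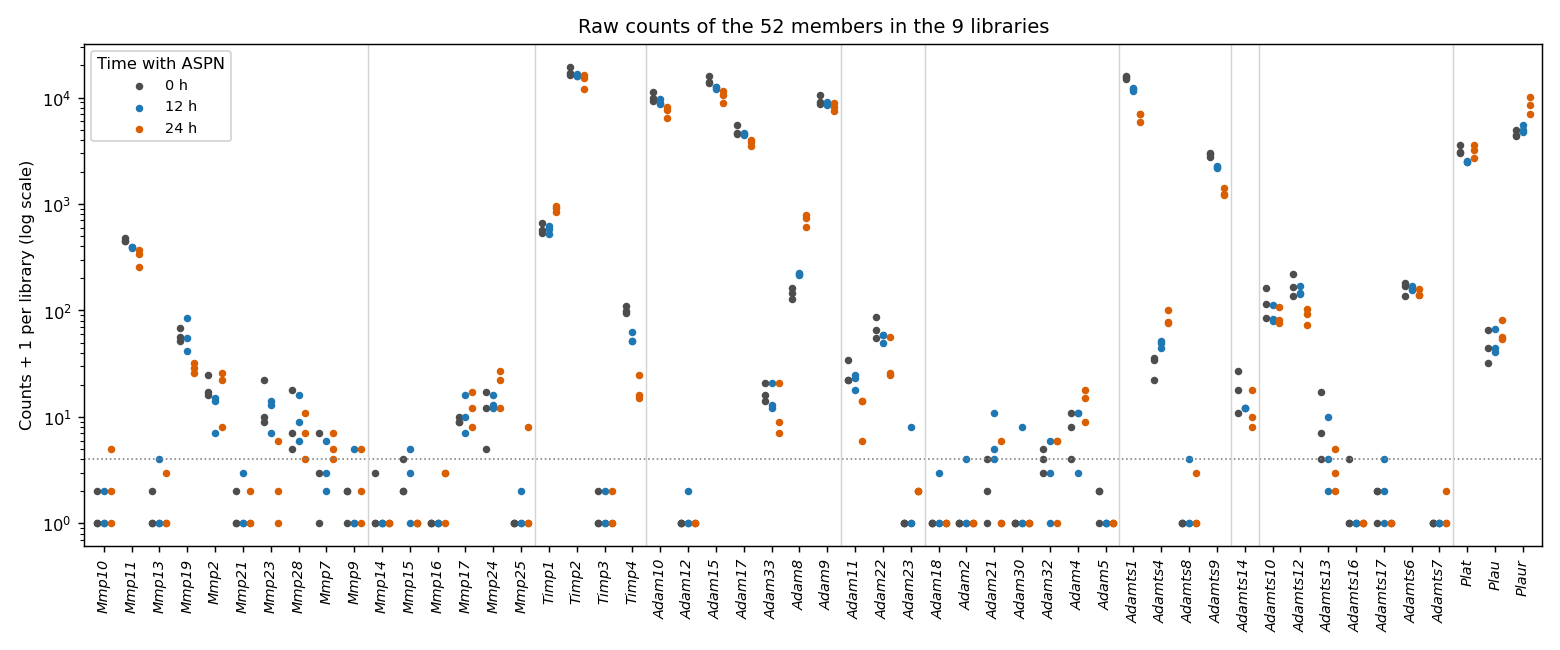
Raw counts plus 1 of each of the 52 members in each of the 9 libraries, on a log axis, with gray, blue and orange points for 0, 12 and 24 hours with ASPN. Vertical lines part the functional groups and the dotted line marks 3 counts. Timp2, Adam9, Adam10, Adam15 and Adamts1 have the most counts at time 0, whereas Mmp9, Mmp13, Mmp14 and Timp3 lie at 0 to 4 counts.

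Expression of the family was uneven. Of the 52 members, 28 had enough counts to be tested in at least 1 comparison and 25 in all 3. The other 24 did not exceed 17 counts in any library, and 13 of them never passed 3 counts. Among these 24 were 6 of the 10 secreted MMPs and 4 of the 6 membrane-type MMPs in the table. The gelatinase gene Mmp9 had 0 to 4 counts per library, the collagenase gene Mmp13 had 0 to 3, and Mmp14, a membrane-type collagenase that also activates the Mmp2 precursor, had 2 counts in 1 time 0 library and 0 in the other 8. Timp3, the inhibitor that binds to the matrix itself, had 1 count in 3 libraries and 0 in 6. Mmp13, Mmp14 and Timp3 were not detectable at this depth, which is not the same as absent, and Mmp9 passed the floor of 3 counts by 1 count in 2 libraries. Mmp3 was not analysed here.

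Levels were compared between genes as CPM per kilobase of exon (RPKM). At time 0, Timp2 was highest at 90.4 ± 1.47 RPKM (SD, n = 3), followed by Adamts1 at 58.7 ± 2.82 RPKM. Adam15 (47.3 ± 0.316) and Adam9 (46.0 ± 1.53) came next and did not differ beyond their spread, and Adam10 (41.3 ± 0.442) and Plaur (35.4 ± 0.961) followed. Adam17 (13.8 ± 0.42) and Timp1 (13.3 ± 0.748) also overlapped within their spread, with Plat at 10.3 ± 0.118 RPKM. The secreted MMP with the highest level was Mmp11, or stromelysin-3, at 3.32 ± 0.156 RPKM, a gene named here after its values were seen. It made up 82.5% to 84.1% of the summed level of the secreted MMPs at time 0, and that sum, 3.98 ± 0.212 RPKM, stood beside sums of 149 ± 2.06 RPKM for ADAMs with a protease site and 104 ± 1.35 RPKM for the TIMPs. By 24 hours, Plaur was second in the order at 71.7 ± 7.66 RPKM and Adamts1 was sixth at 27.6 ± 0.549 RPKM, whereas Timp2 was still first at 81.7 ± 5.59 RPKM.

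**Figure D2:**
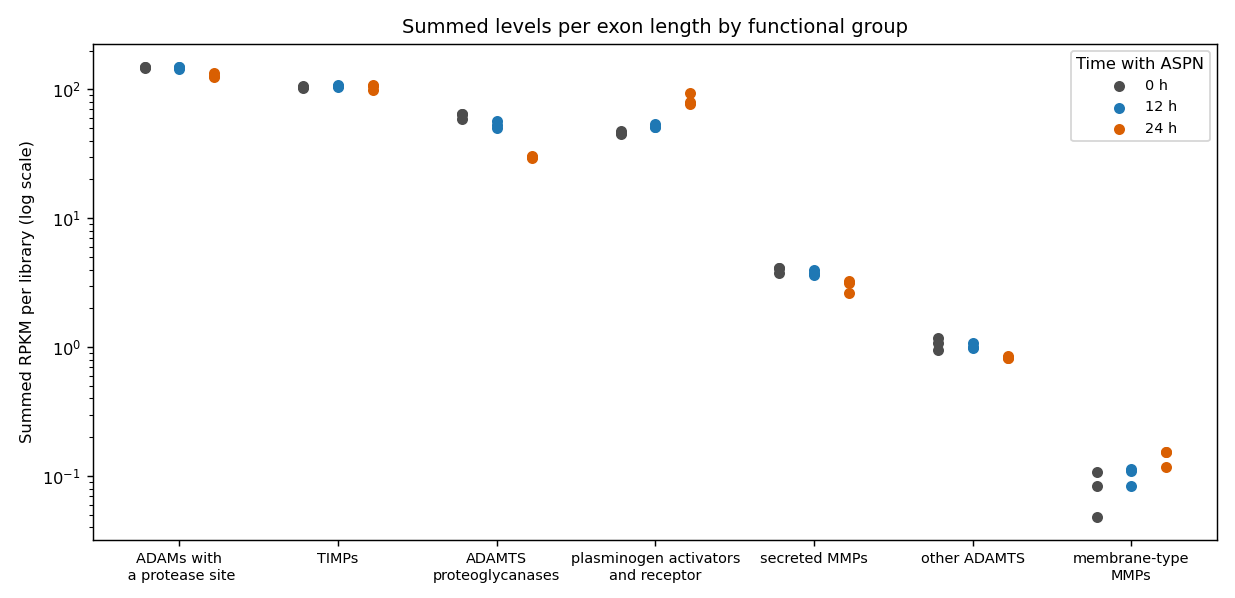
Summed RPKM of the members of each functional group in each library, on a log axis, with gray, blue and orange points for 0, 12 and 24 hours with ASPN. The plasminogen activators and receptor lie higher and the ADAMTS proteoglycanases lower at 24 hours than in every earlier library, and the secreted and membrane-type MMPs lie below 5 RPKM throughout.

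The promoters of 29 of the 52 members were in the RefSeq table used here (31 windows, GRCm38.p6), each from 250 bases before a transcription start to 50 bases after it. Windows were searched on both strands for an AP-1 element (TGANTCA), a GC box (GGGCGG), the NF-kB consensus, and TATAAA, the core letters of a TATA box. The 250 bases before the start are shown for 4 members called at 24 hours, picked after their values were seen, and for 2 nearly silent MMP genes of the chromosome 9 cluster, since Plaur shares an AP-1 element with these. All are written 5′ to 3′ on the strand of the gene. Capitals mark matches on either strand, the GC box reads CCGCCC where it lies on the other strand, and the GC boxes of Plaur adjoin or overlap by 1 base.
Plaur, chr7:24462233-24462482, + strand: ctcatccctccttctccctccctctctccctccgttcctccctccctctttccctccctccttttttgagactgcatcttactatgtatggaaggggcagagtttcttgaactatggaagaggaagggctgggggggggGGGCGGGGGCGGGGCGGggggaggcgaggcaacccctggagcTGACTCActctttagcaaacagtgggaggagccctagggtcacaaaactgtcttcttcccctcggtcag
Adam8, chr7:139992563-139992812, - strand: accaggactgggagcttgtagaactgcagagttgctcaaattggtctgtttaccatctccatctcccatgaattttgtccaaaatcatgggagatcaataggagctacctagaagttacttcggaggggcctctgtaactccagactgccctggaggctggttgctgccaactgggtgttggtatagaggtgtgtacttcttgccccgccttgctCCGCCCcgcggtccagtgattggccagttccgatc
Adamts1, chr16:85803114-85803363, - strand: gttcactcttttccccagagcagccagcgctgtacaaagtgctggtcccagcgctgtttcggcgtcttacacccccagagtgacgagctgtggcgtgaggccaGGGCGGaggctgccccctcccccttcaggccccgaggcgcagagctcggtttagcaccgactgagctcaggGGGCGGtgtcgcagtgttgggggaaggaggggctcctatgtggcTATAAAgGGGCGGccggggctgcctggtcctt
Adamts9, chr6:92943535-92943784, - strand: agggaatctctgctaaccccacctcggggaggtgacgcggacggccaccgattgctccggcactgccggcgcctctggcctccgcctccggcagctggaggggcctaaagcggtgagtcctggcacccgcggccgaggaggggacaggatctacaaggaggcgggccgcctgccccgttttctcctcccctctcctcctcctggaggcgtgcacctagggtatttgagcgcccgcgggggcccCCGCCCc
Mmp13, chr9:7272264-7272513, + strand: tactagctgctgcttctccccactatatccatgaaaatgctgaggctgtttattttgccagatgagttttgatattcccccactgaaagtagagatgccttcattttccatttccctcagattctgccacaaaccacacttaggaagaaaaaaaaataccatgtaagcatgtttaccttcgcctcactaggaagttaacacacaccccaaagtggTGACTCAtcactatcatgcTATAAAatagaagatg
Mmp10, chr9:7502092-7502341, + strand: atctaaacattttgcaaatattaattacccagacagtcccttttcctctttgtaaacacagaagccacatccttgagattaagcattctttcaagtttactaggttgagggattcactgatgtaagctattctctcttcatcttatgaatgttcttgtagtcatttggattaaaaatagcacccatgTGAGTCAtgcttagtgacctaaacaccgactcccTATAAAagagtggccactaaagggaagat
In Plaur the AP-1 match began at position -69 from the start, and its GC boxes at -111, -105 and -100. Mmp10 and Mmp7 each had an AP-1 match at -63, and Mmp13 had one at -35. These 4 were the members with an AP-1 match, and 7.81% of all promoters in the table held one. Of these 4 genes, Plaur had 4387 to 10134 counts per library, and Mmp7, Mmp10 and Mmp13 had at most 6. A GC box was found in 19 members and in 35.7% of all promoters. TATA boxes were found in 5 members (13.6% of all promoters), among them Adamts1, Mmp10 and Mmp13, and the NF-kB consensus in Mmp25 alone (4.51% of all promoters). Matches are descriptions of the letters and not evidence that a factor binds.

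At 12 hours, Adam8 and Adamts4 were higher and Timp4 was lower than at time 0. To be called, a gene needed 1.5-fold or more and an adjusted p (Benjamini-Hochberg, over all genes tested by edgeR's quasi-likelihood test) of 0.05 or less. Of 26 members tested, 2 were called higher, beside 1.5% of all 11410 genes tested, and 1 was called lower, beside 0.0964% of all genes. The median log2 fold change of the members was -0.04, and that of all genes was -0.00487. With the adjusted p alone, 3 members were higher (6.85% of all genes) and 4 were lower (3.47%). In 3 members all 12 hour libraries lay above those of time 0 (13.7% of all genes) and in 6 below (13.4%). The 23 members not called had log2 fold changes from -0.59 (Mmp2) to 0.42 (Mmp24). The numbers called rested on single libraries, with 1 or 2 called higher and 0 or 1 called lower when each library was left out in turn, as given for Adamts4 and Timp4 below.

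After 24 hours, Adam8, Adamts4, Plaur and Timp1 were higher, and Timp4, Adamts1, Adamts9, Adamts12, Mmp19 and Adam11 were lower than at time 0. Thus 4 of 26 members tested were called higher, beside 12.0% of all 11444 genes tested, and 6 were called lower, beside 16.8%. Of these, Adam11 passed the filter of 10 counts in 3 libraries only with those of time 0, where it was high, and 5 were lower without it. By the adjusted p alone, 4 were higher (34.4% of all genes) and 11 lower (36.5%), and the libraries did not overlap in 5 that were higher (35.9%) and 11 that were lower (38.0%). The members' median log2 fold change was -0.28, and that of all genes was -0.02. Scaling by total counts moved the median of all genes by -0.22, and 3 members were then called higher and 8 lower, beside 698 of all genes higher and 3008 lower in place of 1374 and 1924. Members not called at 24 hours, 16 in number, lay between -0.80 (Adam22) and 1.01 (Mmp24) on the log2 scale. The comparisons of 12 and of 24 hours share the time 0 libraries and are not independent.

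Between 12 and 24 hours, 4 of 26 members were called higher (Adam8, Adamts4, Plaur and Timp1), beside 10.4% of all 11394 genes tested, and 5 were called lower (Timp4, Mmp19, Adamts1, Adamts9 and Adamts12), beside 15.3%. With total-count scaling 2 members were called higher, without Plaur (0.54) and Timp1 (0.46), and 7 lower, with Adam11 and Adam22 added, beside 484 of all genes higher and 2830 lower in place of 1184 and 1740. Without ASPN 24 h replicate 1, 8 members were called lower, with Adam11, Adam22 and Mmp23 added. In both of these fits, Adam11 passed the filter only with its 12 hour libraries, where it was high. In the latter fit so did Mmp23, with 6 to 13 counts per library at 12 hours and 0 to 5 at 24 hours. With no library left out, Mmp23 was not tested. By the adjusted p alone, 5 were higher (35.7% of all genes) and 10 lower (35.6%), and all 24 hour libraries lay above those of 12 hours in 5 members (35.8%) and below in 12 (38.1%). The members' median log2 fold change was -0.14, beside 0.00386 for all genes. In 3 of 25 members tested throughout (Adamts4, Adam8 and Plaur), each later time lay above all libraries of the time before, as it did in 6.18% of all genes. For 4 of the 25 (Adamts1, Adam15, Adamts9 and Timp4) each later time lay below, as in 7.18% of all genes.

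**Figure D3:**
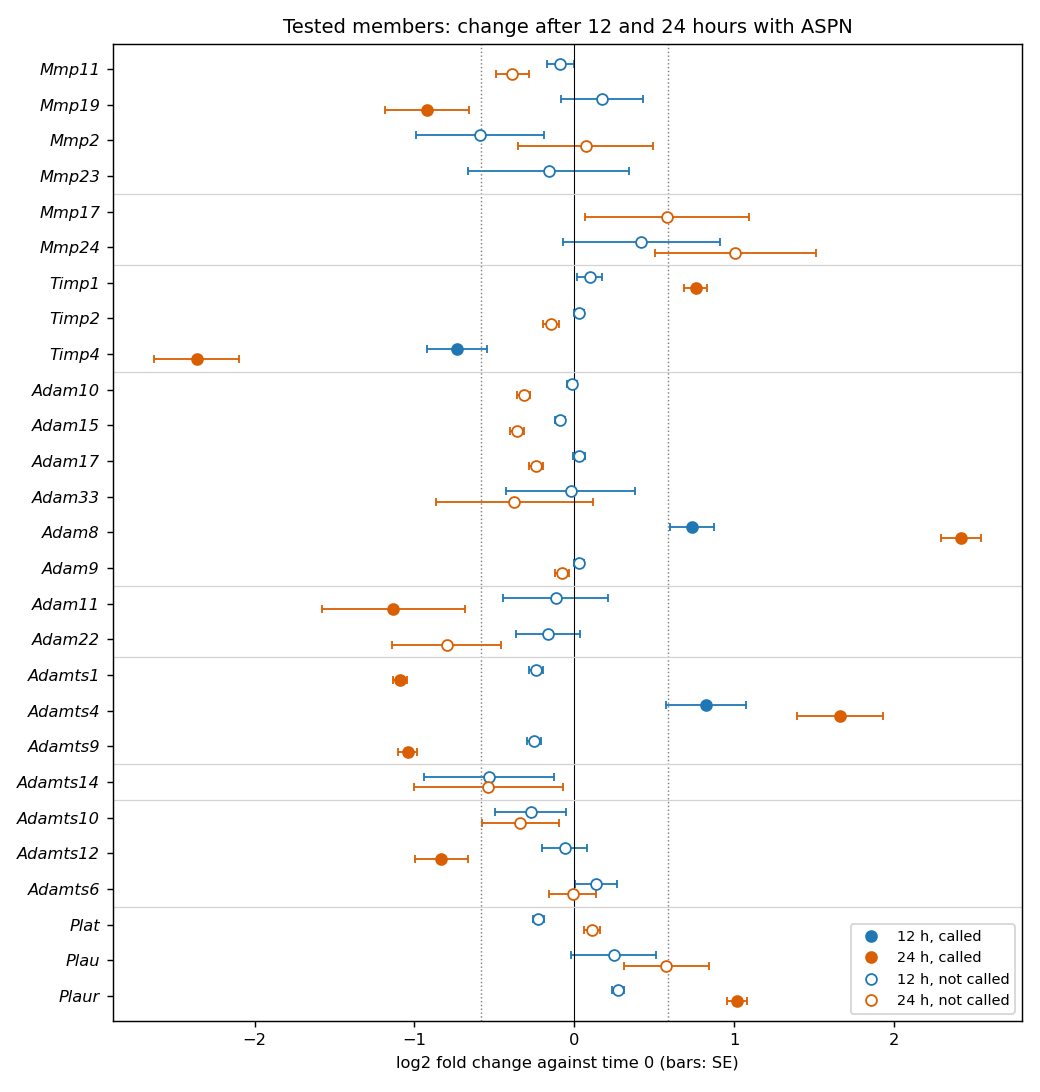
log2 fold changes against time 0 with SE at 12 hours (blue) and 24 hours (orange) for the members tested, in functional groups parted by gray lines. Filled points were called (adjusted p of 0.05 or less and at least 1.5-fold, dotted lines). Adam8 at 2.42 and Timp4 at -2.36 lie farthest from 0 at 24 hours.

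Among the MMPs, no tested member was called higher in any comparison. Mmp19, a secreted MMP that cuts basement membrane proteins (ENSMUSG00000025355.7, chr10:128790910-128800824), had 1.41, 1.18 and 0.934 CPM at time 0, 1.84, 1.16 and 0.937 CPM at 12 hours, and 0.613, 0.643 and 0.592 CPM at 24 hours. All 24 hour libraries lay below all of the earlier ones, and the libraries of 0 and 12 hours overlapped. The log2 fold change at 24 hours was -0.92 (SE 0.263, adjusted p = 0.0067), on 25 to 68 counts per library at 0 and 24 hours. Antisense genes overlap 22.3% of the exon length of Mmp19 in the largest case, and since the sources used here do not state whether strand was used in counting, their reads cannot be told apart from its own. In these bulk libraries, fewer cells that express a gene and less RNA per cell cannot be told apart either.

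Mmp11 had 9.38, 9.54 and 8.72 CPM at time 0, 8.57, 8.30 and 9.05 CPM at 12 hours, and 6.20, 7.70 and 7.16 CPM at 24 hours. Its 24 hour libraries were all below the others, by 0.39 on the log2 scale (SE 0.103, adjusted p = 0.0042), which was less than 1.5-fold. With total-count scaling the log2 fold change was -0.61 and passed both thresholds. The gelatinase gene Mmp2 had 6 to 25 counts per library, the groups overlapped at 24 hours, and its log2 fold change was 0.07 (SE 0.422, adjusted p = 0.89), with a sign that turned when scaling was by total counts (-0.15) or when single libraries were left out (-0.22 to 0.39). Mmp24, a membrane-type MMP best known from neurons and named after its values were seen, had 4 to 26 counts per library and was higher by 1.01 on the log2 scale at 24 hours (SE 0.503, adjusted p = 0.09). It passed the test without time 0 replicate 1 (1.5, adjusted p = 0.043) or without ASPN 24 h replicate 1 (1.22, adjusted p = 0.048), and with the length and GC correction (1.30, adjusted p = 0.029). With all libraries, and without time 0 replicate 1, Mmp24 passed the filter only with its 24 hour libraries, where it was high.

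The inhibitors moved apart from each other: Timp1 rose, Timp4 fell, and Timp2, which makes up most of the TIMP level, stayed within 1.5-fold. Timp4 (ENSMUSG00000030317.8, chr6:115241892-115252205), an inhibitor best known from heart, had 2.24, 2.08 and 1.72 CPM at time 0, 1.11, 1.33 and 1.17 CPM at 12 hours, and 0.368, 0.290 and 0.507 CPM at 24 hours. No library of a later time reached the level of an earlier one. The log2 fold change was -0.73 (SE 0.187, adjusted p = 0.016) at 12 hours and -2.36 (SE 0.266, adjusted p = 3.1e-06) at 24 hours. The level at 24 hours was 0.194 of that at time 0, on 14 to 24 counts per library. The 12 hour call was lost without ASPN 12 h replicate 1 (-0.68, adjusted p = 0.069) or replicate 3 (-0.71, adjusted p = 0.062). Syn2 on the other strand overlaps 1.5% of the exon length of Timp4.

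Timp1, a broad MMP inhibitor and an inducible gene in many cells (ENSMUSG00000001131.11, chrX:20870166-20874735, within an intron of Syn1 on the other strand), had 11.1, 12.2 and 12.2 CPM at time 0 and 12.8, 13.3 and 11.8 CPM at 12 hours. At 24 hours the libraries had 20.8, 20.0 and 19.4 CPM. The first 6 libraries overlapped, and those of 24 hours were all higher, by 0.76 on the log2 scale (SE 0.0738, adjusted p = 7.5e-07), or 1.69-fold. That fold dropped below 1.5 with total-count scaling (0.54) or an adjustment for the length and GC of transcripts (0.45), with the sign kept.

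Timp2 had 346 to 356 CPM at time 0, 352 to 364 CPM at 12 hours and 294 to 336 CPM at 24 hours. Its 24 hour libraries lay below the others by 0.15 on the log2 scale (SE 0.0492, adjusted p = 0.017), a difference whose sign turned with the length and GC correction (0.02). Timp2 carried 86.3% to 87.7% of the summed TIMP level at time 0 and 76.3% to 79.2% at 24 hours. That sum was 104 ± 1.35 RPKM (SD, n = 3) at time 0, 107 ± 1.40 RPKM at 12 hours and 104 ± 5.02 RPKM at 24 hours, with overlapping ranges at 0 and 24 hours.

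Adam8 (ENSMUSG00000025473.16, chr7:139978932-139992562) gave the largest rise of any member called. It encodes a surface protease known from leukocytes and from invasive carcinomas. The time 0 libraries had 2.99, 3.49 and 2.35 CPM, the 12 hour libraries 4.92, 4.75 and 4.94 CPM, and the 24 hour libraries 14.9, 16.5 and 15.6 CPM. Groups did not overlap. The log2 fold change was 0.74 (SE 0.138, adjusted p = 0.0016) at 12 hours and 2.42 (SE 0.125, adjusted p = 2e-09) at 24 hours, which is 5.35-fold. Between 12 and 24 hours it was 1.70 (SE 0.0814, adjusted p = 8.9e-10). Per length, the level went from 0.634 ± 0.124 to 3.37 ± 0.172 RPKM (SD, n = 3), still below Adam9, Adam10, Adam15 and Adam17. Adam8 is also a gene of leukocytes, and the markers Csf1r, Lyz2 and Itgam were at 0 to 4 counts per library. Cd14 averaged 8.61 ± 0.271 CPM at time 0, 19.5 ± 1.99 CPM at 12 hours and 20.0 ± 3.08 CPM at 24 hours (SD, n = 3). It was called higher at 12 hours (1.18, SE 0.0814, adjusted p = 2.5e-08) and at 24 hours (1.22, SE 0.105, adjusted p = 2.4e-07). From 12 to 24 hours it was not called (0.05, SE 0.101, adjusted p = 0.65).

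Among the sheddases with high levels, Adam10, Adam15 and Adam17 were lower at 24 hours by less than 1.5-fold, Adam9 did not pass the test, and none was called. Adam10, which sheds Notch receptors and many adhesion proteins, had 201 to 205 CPM at time 0, 195 to 207 CPM at 12 hours and 158 to 169 CPM at 24 hours. Adam17, which releases TNF and several EGF receptor ligands, had 94.9 to 100.3 CPM, 96.2 to 104 CPM and 81.5 to 85.5 CPM at the same times. For both, the 24 hour libraries lay below all others. The log2 fold changes at 24 hours were -0.32 (SE 0.041, adjusted p = 1.1e-05) for Adam10 and -0.24 (SE 0.0429, adjusted p = 0.00021) for Adam17. Adam15, an ADAM linked to cell adhesion, had 289 to 293 CPM at time 0, 272 to 275 CPM at 12 hours and 217 to 240.4 CPM at 24 hours. These groups did not overlap, with log2 fold changes of -0.09 (adjusted p = 0.072) at 12 hours and -0.36 (SE 0.0442, adjusted p = 7.4e-06) at 24 hours. An antisense gene covers 20.6% of the exon length of Adam15. Adam9 had 171 to 196 CPM over the 9 libraries and differed by -0.08 on the log2 scale at 24 hours (SE 0.0441, adjusted p = 0.14). The summed level of ADAMs with a protease site was 149 ± 2.06 RPKM (SD, n = 3) at time 0, 147 ± 2.17 RPKM at 12 hours and 129 ± 4.18 RPKM at 24 hours.

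Adam11 (ENSMUSG00000020926.16, chr11:102761439-102780262) and Adam22 belong to the ADAMs of brain that lack a protease site. Adam11 had 0.684, 0.450 and 0.385 CPM at time 0, 0.525, 0.365 and 0.503 CPM at 12 hours, and 0.319, 0.104 and 0.275 CPM at 24 hours. Its 24 hour libraries, with 5 to 13 counts, were below the earlier ones, and the log2 fold change was -1.13 (SE 0.449, adjusted p = 0.037), in a gene that passed the filter only with its time 0 libraries. The call was lost without time 0 replicate 1 (-0.84, adjusted p = 0.18) or 2 (-1.20, adjusted p = 0.062), without ASPN 24 h replicate 2 (-0.76, adjusted p = 0.15) or 3 (-1.29, adjusted p = 0.052), with DESeq2 (adjusted p = 0.057) and with the length and GC correction (-0.69, adjusted p = 0.19). Adam22, which binds LGI proteins at synapses and is named after its values were seen, had 1.35, 0.498 and 0.528 CPM at 24 hours beside 1.16 to 1.56 CPM at time 0. One 24 hour library lay among those of time 0, and the log2 fold change was -0.80 (SE 0.342, adjusted p = 0.051). Without that library, ASPN 24 h replicate 1, it was -1.39 (adjusted p = 0.00075). Adam22 also passed both thresholds with DESeq2 (-0.77, adjusted p = 0.048), limma-voom (-0.95, adjusted p = 0.022), RLE factors (-0.79, adjusted p = 0.049), total counts (-1.02, adjusted p = 0.018), no filter (-0.80, adjusted p = 0.02), at least 10 counts in every library (-0.81, adjusted p = 0.045) and all 9 libraries in 1 fit (-0.80, adjusted p = 0.03).

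The ADAMTS proteoglycanases, which cut versican and aggrecan, moved in both directions. Adamts1 (58.7 ± 2.82 RPKM at time 0) and Adamts9 (3.88 ± 0.175 RPKM) fell, and Adamts4 (0.123 ± 0.0259 RPKM) rose. Adamts1 (ENSMUSG00000022893.14, chr16:85793827-85803113) had 322, 318 and 294 CPM at time 0, 261, 247 and 281 CPM at 12 hours, and 144, 146 and 149 CPM at 24 hours. Each later time lay below the one before, and the log2 fold change was -0.24 at 12 hours (SE 0.0452, adjusted p = 0.0017), under 1.5-fold, and -1.09 at 24 hours (SE 0.0445, adjusted p = 3.1e-10). Adamts9 (ENSMUSG00000030022.14, chr6:92772699-92943492) had 60.8, 58.9 and 55.6 CPM at time 0, 47.2, 48.4 and 50.9 CPM at 12 hours, and 29.6, 29.5 and 25.9 CPM at 24 hours. This is the same order as in Adamts1, without overlap. Its log2 fold change was -0.25 at 12 hours (SE 0.0434, adjusted p = 0.00068) and -1.04 at 24 hours (SE 0.0613, adjusted p = 6.1e-09), so that both genes were near 0.47 (Adamts1) and 0.485 (Adamts9) of their time 0 level. From 12 to 24 hours the change in Adamts9 (-0.77) was below 1.5-fold with the length and GC correction (-0.49). Antisense genes overlap up to 9.2% of its exon length.

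Adamts4 (ENSMUSG00000006403.13, chr1:171250421-171260637), the aggrecanase that inflammatory cytokines induce in cartilage, had 0.684, 0.450 and 0.641 CPM at time 0, 0.940, 1.10 and 1.12 CPM at 12 hours, and 2.48, 1.60 and 1.61 CPM at 24 hours. Every later library was above every earlier one. It rose by 1.66 on the log2 scale at 24 hours (SE 0.27, adjusted p = 9.5e-05), or 3.16-fold. At 12 hours it was 0.82 (SE 0.251, adjusted p = 0.047), a call that depended on the analysis: the adjusted p was 0.034 to 0.087 over the alternatives and 0.037 to 0.16 with 1 library left out, and the call remained only without time 0 replicate 1 among the 6 libraries left out. Per length, Adamts4 went from 0.123 ± 0.0259 to 0.394 ± 0.105 RPKM and Adamts1 from 58.7 ± 2.82 to 27.6 ± 0.549 RPKM (SD, n = 3). Adamts1 carried 91.6% to 93.1% of the summed proteoglycanase level at 24 hours, and that sum went from 62.7 ± 2.99 RPKM at time 0 to 53.1 ± 3.35 RPKM at 12 hours and 29.8 ± 0.340 RPKM at 24 hours.

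Adamts12 (ENSMUSG00000047497.10, chr15:11064790-11349231), a secreted protease known to cut cartilage oligomeric matrix protein, had 3.42, 2.94 and 4.01 CPM at time 0, 3.08, 3.59 and 3.29 CPM at 12 hours, and 1.76, 2.14 and 1.92 CPM at 24 hours. The first 6 libraries overlapped and those of 24 hours were lower, by 0.83 on the log2 scale (SE 0.166, adjusted p = 0.00053).

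**Figure D4:**
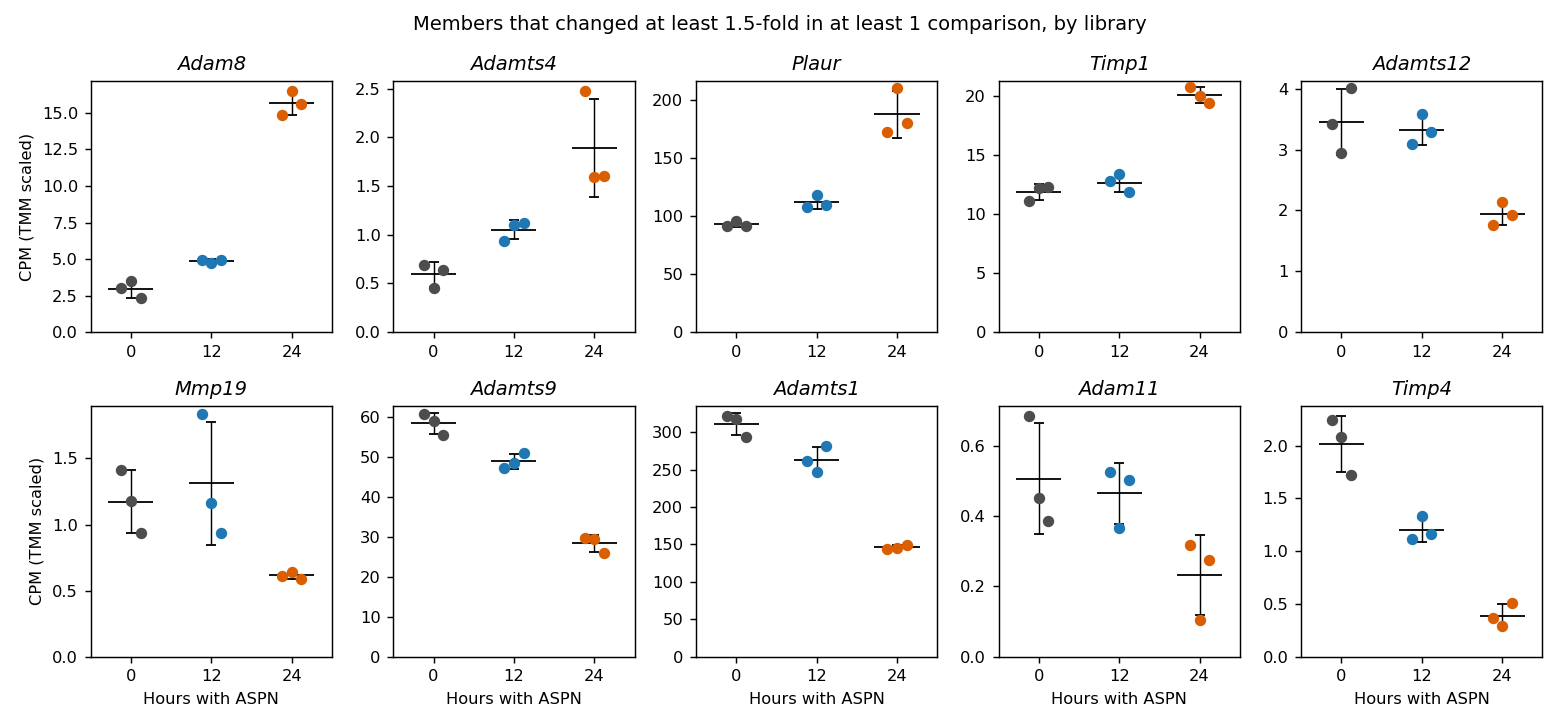
TMM-scaled CPM of the 10 members called in at least 1 comparison, by library, with the mean (line) and SD (bar) of the 3 libraries at 0, 12 and 24 hours with ASPN. Each axis starts at 0 and has its own scale. Adam8, Adamts4, Plaur and Timp1 are highest at 24 hours, and the other 6 are lowest there.

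Of the plasminogen activator genes, the receptor rose and the activators did not pass the thresholds. Plaur, the urokinase receptor (ENSMUSG00000046223.10, chr7:24462484-24475968), had 91.0, 95.6 and 91.5 CPM at time 0, 108, 118 and 109.6 CPM at 12 hours, and 172, 210.2 and 180.3 CPM at 24 hours. No library overlapped with one of another time. Its log2 fold change was 0.27 at 12 hours (SE 0.0377, adjusted p = 8.1e-05), which was 1.21-fold and not called, and 1.02 at 24 hours (SE 0.064, adjusted p = 1.1e-08), which was 2.02-fold. Between 12 and 24 hours it was 0.77 (SE 0.0629, adjusted p = 1.5e-07), and 0.54 with total-count scaling, under 1.5-fold.

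Plat, tissue plasminogen activator, had 63.6, 64.7 and 65.0 CPM at time 0, 55.7, 53.0 and 56.4 CPM at 12 hours, and 66.4, 74.2 and 68.3 CPM at 24 hours. The 12 hour libraries were below all others. The log2 fold change was -0.22 at 12 hours (SE 0.0373, adjusted p = 0.00053) and 0.36 from 12 to 24 hours (SE 0.0489, adjusted p = 2e-05), both under 1.5-fold, and at 24 hours against time 0 it was 0.11 (SE 0.0491, adjusted p = 0.056), with the sign turned by total-count scaling (-0.11). Plau, urokinase, had 31 to 80 counts per library, 0.664 to 1.19 CPM at time 0 and 1.16 to 1.66 CPM at 24 hours. The ranges overlapped, and the log2 fold change was 0.58 (SE 0.264, adjusted p = 0.067). Without time 0 replicate 3 it was 0.83 and passed the test (adjusted p = 0.03). Plaur held 76.2% to 77.4% of the summed level of these 3 genes at time 0 and 85.5% to 86.5% at 24 hours, while the sum went from 46.1 ± 0.943 to 83.4 ± 8.41 RPKM (SD, n = 3).

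Of the other genes of the plasmin system examined, 12 were in the table and 8 were tested. None was called at 12 hours, and 1 was called higher at 24 hours, beside 12.0% of all genes. Vtn, which passed the filter only with its time 0 libraries, where it was high, is left out of the count, and no other was called lower, beside 16.8% of all genes. Anxa2, part of a cell surface receptor for plasminogen and Plat, was at 749 ± 18.6 CPM (SD, n = 3) at time 0, 813 ± 37.1 CPM at 12 hours and 1213 ± 61.0 CPM at 24 hours. It was higher by 0.70 on the log2 scale at 24 hours (SE 0.0461, adjusted p = 1.9e-08), and its partner S100a10 had a log2 fold change of 0.44 and was not called. Vtn, or vitronectin, a matrix protein that binds the urokinase receptor, had 38 to 46 counts per library at time 0 and 6 to 17 at 24 hours, and differed by -1.70 on the log2 scale (SE 0.385, adjusted p = 0.0014).

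**Figure D5:**
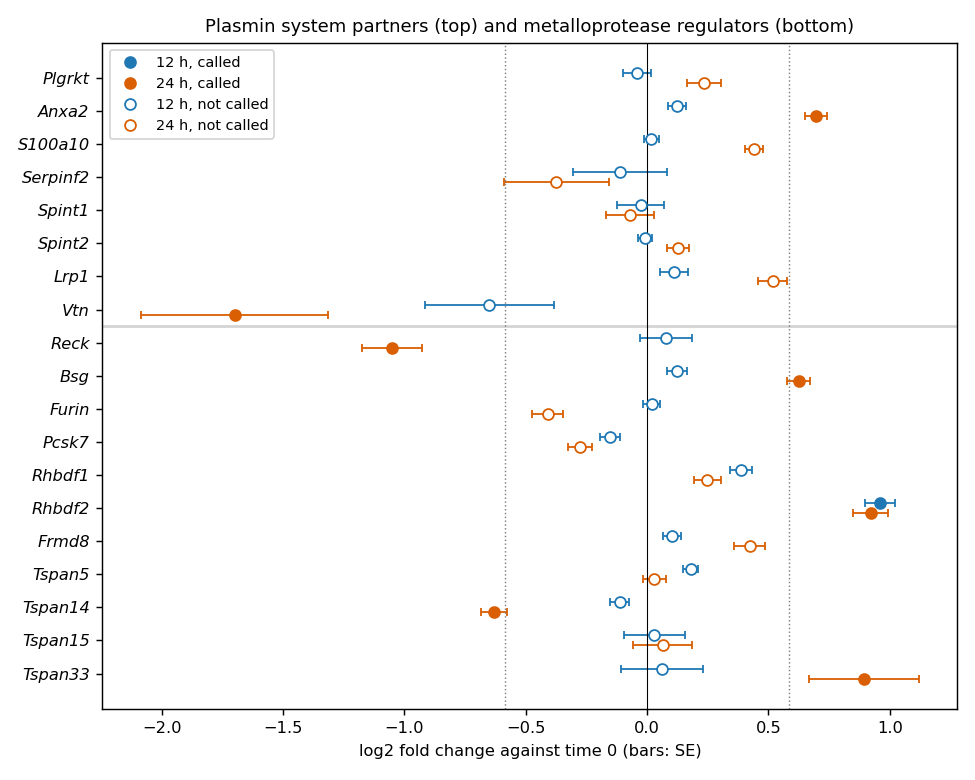
log2 fold changes against time 0 with SE at 12 hours (blue) and 24 hours (orange) for partners of the plasmin system (top) and regulators of metalloproteases (bottom). Filled points were called (adjusted p of 0.05 or less and at least 1.5-fold, dotted lines). Rhbdf2 lies highest, at 0.96 and 0.92, and was called at both times, and Vtn lies lowest at -1.70.

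Regulators of the metalloproteases were tested for 11 of the 12 in the table, and 1 was called higher at 12 hours, beside 1.5% of all genes. At 24 hours 3 were called higher and 2 lower, beside 12.0% and 16.8% of all genes, with a median log2 fold change of 0.06. Rhbdf2 (iRhom2), which carries Adam17 to the cell surface, was at 15.9 ± 1.06 CPM (SD, n = 3) at time 0, 30.8 ± 1.89 CPM at 12 hours and 30.1 ± 2.12 CPM at 24 hours. It was thus already high at 12 hours, by 0.96 on the log2 scale (SE 0.0622, adjusted p = 1.1e-08), and the value from 12 to 24 hours was -0.02 (SE 0.0636, adjusted p = 0.82). At 24 hours Bsg (basigin, an inducer of MMPs) was higher by 0.63 (SE 0.0463, adjusted p = 5.4e-08) and Tspan33, a tetraspanin that partners Adam10, by 0.89 (SE 0.226, adjusted p = 0.0031). Reck, a membrane-anchored MMP inhibitor, was lower by 1.05 on the log2 scale (SE 0.124, adjusted p = 4.9e-06) and Tspan14, another partner of Adam10, by 0.63 (SE 0.0543, adjusted p = 2.2e-07).

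Surface proteins that ADAMs are known to shed were called in both directions at 24 hours. Of 22 in the table, 18 were tested at 12 hours. Tnf, with 0 counts in the time 0 libraries and 11 to 24 at 12 hours, could be tested only through its 12 hour libraries and is left out of the count. Of the others, 3 were called higher (Icam1, Vcam1 and Cx3cl1) and none lower, beside 1.5% and 0.0964% of all genes. At 24 hours 17 were tested, with 4 called higher and 4 lower, beside 12.0% and 16.8% of all genes. At 24 hours the EGF receptor ligand Hbegf was higher by 1.26 (SE 0.0902, adjusted p = 4.1e-08), the hyaluronan receptor Cd44 by 1.23 (SE 0.0626, adjusted p = 1.7e-09), and the adhesion receptors Icam1 by 2.82 (SE 0.12) and Vcam1 by 5.57 (SE 0.16). Notch2 was lower by 1.11 on the log2 scale (SE 0.0506, adjusted p = 7.7e-10), and Jag1, Il6ra and Tnfrsf1b had log2 fold changes of -1.05, -0.98 and -0.68. Shedding itself was not measured, since the libraries report RNA and not protein.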

How the data were processed

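RNA-Seq libraries (TruSeq mRNA, paired-end) of MyC-CaP cells at 0, 12 and 24 hours were used, 3 per time, grouped by their labels. The authors aligned reads to GRCm38 with STAR and used featureCounts, and they deposited raw counts, not normalized, for 15384 protein-coding genes. How the genes were chosen and whether strand was used are not given in the sources used here, and 3 counts (the floor) cover counting error only. The spread of same-time libraries exceeded sampling noise (chi-square per degree of freedom 3.41 to 17.5). They are labeled biological replicates, and the study's methods say that cells were plated in triplicate wells. Whether the wells came from separate cultures is not given in the sources used here, so p-values measure the spread between these libraries, which may be technical.

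For each comparison, the 6 libraries were filtered with filterByExpr, scaled with TMM and tested with edgeR 4.0.16 (R 4.3.3) by the quasi-likelihood test without a block, with Benjamini-Hochberg adjustment over all tested genes. SE is the absolute log2 fold change over the square root of F. RPKM uses union exon length from GENCODE M21, in which all 52 members and 15374 of all genes were found.

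Alternatives were DESeq2 1.42.0, limma-voom (limma 3.58.1), RLE, upper-quartile and total-count scaling, no filter, at least 10 counts in every library, 1 fit of all 9 libraries, the replicate block, a length and GC correction (loess, span 0.3) with and without the block, the adjusted p alone and leaving out each library. The calculations were tested on simulated data. Members, lists and functional groups were chosen with earlier results of these data known. Named genes are all called members, a fixed set of well-known MMPs, TIMPs, ADAMs, ADAMTS and plasminogen activator genes whatever their result, and members of the lists. Some genes of these lists are not reported here.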

Additional observations from a re-analysis of the deposited data

Results flagged for a closer look

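The change from time 0 differed between 12 and 24 hours, tested as the comparison of 24 with 12 hours (called at adjusted p of 0.05 or less and 1.5-fold, edgeR), for 4 members in the higher and 5 in the lower direction of 26 tested, beside 10.4% and 15.3% of all genes. The log2 difference was 1.70 for Adam8, 0.86 for Adamts4, 0.77 for Plaur and 0.68 for Timp1. Plaur and Timp1 were under 1.5-fold with total counts (0.54 and 0.46) and with the length and GC correction (0.57 and 0.37), and 484 of all genes were higher and 2830 lower with total counts in place of 1184 and 1740. It was -0.83 for Adamts1, -0.75 for Adamts12, -0.77 for Adamts9, -1.07 for Mmp19 and -1.61 for Timp4. Adamts9 was also under 1.5-fold with the length and GC correction (-0.49, with or without the block). In each of these, no 24 hour library overlapped with the 12 hour libraries. Adam11 had a log2 difference of -0.99 (SE 0.439, adjusted p = 0.058) and was not called. It was called with limma-voom (-1.09, adjusted p = 0.041), total counts (-1.22, adjusted p = 0.024), all 9 libraries in 1 fit (-1.01, adjusted p = 0.046) and without ASPN 24 h replicate 1 (-1.27, adjusted p = 0.032). In all of these fits Adam11, with 5 to 13 counts per library at 24 hours, passed the filter only with earlier libraries, where it was high.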

How the results depend on the processing

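Of the single-gene values under the alternatives, 1042 kept their direction and side of the threshold, 31 lost the call, 36 gained it and 18 changed sign. At 12 hours, 1 member in place of 2 was called higher with DESeq2, limma-voom, total counts, all 9 libraries in 1 fit, the replicate block, or the block with the length and GC correction, and 4 in place of 1 were lower with the adjusted p alone. At 24 hours, 11 in place of 6 were lower with the adjusted p alone. From 12 to 24 hours, 10 in place of 5 were lower with the adjusted p alone, and 2 in place of 4 were higher with total counts or the length and GC correction, with or without the block (Plaur 0.54, 0.57 and 0.57, Timp1 0.46, 0.37 and 0.37 on the log2 scale). The cause was not tested. With each library left out in turn, the members called higher were 1 to 2 at 12 hours, 4 to 5 at 24 hours and 4 in every case from 12 to 24 hours, and those called lower 0 to 1, 5 to 7 and 5 to 8. These ranges include members that passed the filter only with the libraries where they were high. Among those higher at 24 hours, they were Adam4 (without ASPN 24 h replicate 3) and Mmp24 (without time 0 replicate 1). Without ASPN 24 h replicate 1, they were Adam11 in both comparisons with 24 hours and Mmp23 from 12 to 24 hours. Mmp23 was also among them without ASPN 12 h replicate 3.

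Signs turned for Mmp2 at 24 hours with limma-voom (-0.044) and total counts (-0.15), for Plat at 24 hours with total counts (-0.11), and for Timp2 with the length and GC correction without and with the block at 24 hours (0.021 and 0.020) and from 12 to 24 hours (0.013 and 0.012). With single libraries left out, the log2 fold change ranged from -0.22 to 0.39 for Mmp2 at 24 hours, and at 12 hours from -0.035 to 0.0062 for Adam10, -0.29 to 0.16 for Adam11, -0.0023 to 0.057 for Adam17, -0.16 to 0.065 for Adamts12, -0.15 to 0.36 for Mmp19, -0.023 to 0.90 for Mmp24 and -0.0043 to 0.49 for Plau.

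The replicate numbers in the labels were used for the replicate block as an alternative. Same-numbered libraries deviated from their group means with correlations of -0.106 to 0.0565 over genes, and a library correlated best with its own number in 3 of 18 cases. No shared deviation of same-numbered libraries was thus detected, and what else they may share is not given in the sources used here. With the block, 1 member was called higher and 1 lower at 12 hours, 4 and 7 at 24 hours, and 4 and 5 from 12 to 24 hours. Adam22 was among those lower at 24 hours with the block (-0.86, adjusted p = 0.049). With the length and GC correction at 24 hours, Mmp24 gained the call (1.30, adjusted p = 0.029, and 1.32, adjusted p = 0.05, with the block) and Timp1 lost it (0.45 in both). Mmp24 passed the filter there only with its 24 hour libraries, where it was high. Mmp2, Mmp24, Adam11 and Plau had SEs of 0.264 to 0.503 on the log2 scale at 24 hours, so small changes in them were not detectable at this depth.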
